A study of Mus musculus with 12 samples.

Results

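The 10 genes described here encode the signalling parts of the T cell receptor (TCR) and the proteins that work beside it: the CD3 chains Cd3d, Cd3e and Cd3g, the zeta chain Cd247, the coreceptors Cd4, Cd8a and Cd8b1, the kinase Lck, the adhesion receptor Cd2 and the thymocyte signalling protein Themis. They were found by gene symbol in a table of 55487 genes, where each of the 10 matched 1 gene, and all 10 had enough counts to be tested. RNA-Seq was performed on whole lungs of 12 miR-30a-/- mice on the C57BL/6J background, in which the miR-30a gene had been removed by CRISPR/Cas9, so that room air controls and exposed mice alike lacked it. Wild-type lungs were not analysed here. Pups breathed 95% FiO2 from postnatal day (PND) 1 to PND 5 and then recovered in room air, or stayed in room air, and lungs were taken on PND 21. There were 3 lungs in each of the 4 groups: female room air, female hyperoxia, male room air and male hyperoxia. Pups of several litters were pooled before they were assigned, the dams were rotated between exposures, and the right ventricle was flushed with PBS before the lungs were frozen.

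T cells recognise peptides held by MHC molecules through a receptor whose variable chains bind antigen but carry no signalling tail of their own. The CD3 and zeta chains supply that tail. CD4 or CD8 binds the same MHC molecule and brings LCK, which phosphorylates the tails. CD2 steadies the contact with the presenting cell, and THEMIS tunes the signal, chiefly while T cells are selected in the thymus. The lung holds resident and passing T cells, so that in bulk RNA a lower or higher level of these genes can come from the number of T cells or from the RNA per cell, which cannot be told apart.

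The number of counts per lung ran from 8763033 to 16741694, with a median of 11942546, and 3 counts, taken as the smallest detectable level, equalled 0.191 to 0.327 CPM, which are counts relative to the normalised size of each library. Female room air lungs had 12497449 to 16741694 counts and exposed female lungs 10255870 to 11584337, which did not overlap. Gm10800, Gm10801 and Gm21738, named after their values were seen, took 7.12% to 19.7% of counts in female room air, 18.4% to 26.7% in female hyperoxia, 17.9% to 25.7% in male room air and 8.48% to 28.5% in male hyperoxia. The part of depth and of these reads in the female changes was not tested. Mir30a had 0 counts in all 12 lungs, as did its neighbour Mir30c-2, which says nothing of the deletion at this depth. Ddx3y, on the Y chromosome, had 270 to 715 counts in the lungs labelled male and 0 in those labelled female. Reads also lay over genes of families used mainly in sensory neurons. These were gauged on 1479 olfactory and vomeronasal receptor genes, whose share of all counts was 0.410% to 0.739% in female room air, 0.669% to 0.847% in female hyperoxia, 0.642% to 0.900% in male room air and 0.515% to 0.945% in male hyperoxia. The median density of these reads per kilobase of exon in a lung is called background below, and a gene's own background is that density times its exon length.

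Because all 12 mice lacked miR-30a, the 3′ untranslated regions (UTR) of the members were searched for the letters TGTTTAC, the complement of the miR-30a-5p seed. The mature microRNA (RefSeq, GRCm38.p6, chr1:23272274-23272295, plus strand) is shown first with its seed, bases 2 to 8, in capitals. The matching site in the last exon of Cd8a (mm10, chr6:71377864-71377870, plus strand, GENCODE) is shown second with the match in capitals and its flanks in lower case.
mmu-miR-30a-5p: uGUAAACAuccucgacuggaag
Cd8a 3′ UTR: aactagataaaTGTTTACaatagagatta
Of the 10 members, 1 held these letters in its 3′ UTR, against 14.4% of 21022 genes with an annotated 3′ UTR. The match describes letters and no binding was measured.

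Levels were low. Each member had between 70 and 331 counts in a lung, and the 10 genes together came to 124 to 157 CPM. As a check of the tissue, the 6 alveolar epithelial genes fixed for this purpose lay 41.8 to 2736 times above background, the last being Sftpc, surfactant protein C. The members lay 1.34 to 6.67 times above it. For the receptor genes themselves this ratio had a 5th percentile of 0.289 and a 95th of 1.86, and 8 of the 10 members lay above the latter. Cd247, at 1.84, and Themis, at 1.34, did not.

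**Figure D1:**
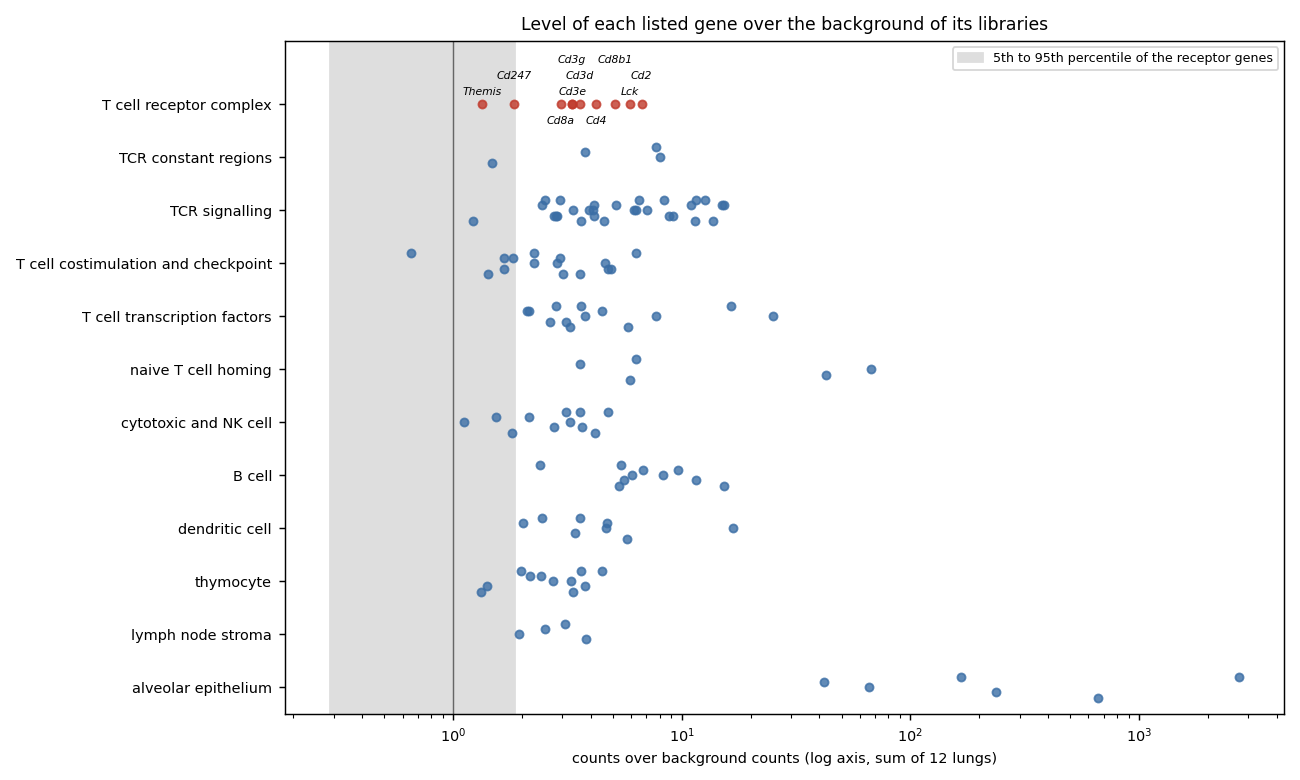
Counts over background counts, summed over 12 lungs, for each gene of the lists; the horizontal axis is a log axis, each point is 1 gene and the grey band spans the 5th to 95th percentile of the olfactory and vomeronasal receptor genes. The red points of the 10 members lie between 1.34 and 6.67, with Themis and Cd247 inside the band, and genes at 0 counts are not drawn.

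Per kilobase of exon and after background was taken off, Cd2 had the highest level, 6.58 ± 1.703 CPM per kb (SD, n = 12 lungs), followed by Lck with 5.78 ± 0.70, Cd8b1 with 4.83 ± 0.58 and Cd4 with 3.80 ± 0.64. Cd3d (3.02 ± 0.77), Cd3e (2.74 ± 0.43), Cd3g (2.71 ± 0.56) and Cd8a (2.30 ± 0.53) followed. Cd247 (0.975 ± 0.30) and Themis (0.399 ± 0.17) were lowest. The ranges over lungs of neighbours in this order overlapped, with 1 exception: the lowest Cd8a value, 1.72, lay above the highest Cd247 value, 1.55. Background made up 15.0% of the counts of Cd2, 16.8% of Lck, 19.6% of Cd8b1 and 23.6% of Cd4. It made up 27.9% to 33.9% of the counts of the 3 CD3 genes and Cd8a, 54.3% of Cd247 and 74.5% of Themis. Cd247 shares 3213 of its 5329 exon bases with Gm16565 and Pou2f1, and since the use of strand in counting is not stated, its counts are uncertain. Smaller exon overlaps with other genes were annotated for Themis (153 bases, 4930519F09Rik), Cd3e (135 bases, Gm48719) and Lck (25 bases, Mir8119).

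The CD3 chains pair as gamma-epsilon and delta-epsilon dimers in the assembled receptor, and Cd3g, Cd3d and Cd3e lie side by side on chromosome 9 of mm10 (44969572 to 44980431, 44981786 to 44987339 and 44998740 to 45009627). Cd3e, the chain shared by both dimers, stood at 15.6, 12.4 and 17.8 CPM in female room air lungs and at 18.3, 15.98 and 18.8 CPM after hyperoxia. In males it stood at 16.2, 18.2 and 14.1 CPM in room air and at 12.5, 17.96 and 15.4 CPM after hyperoxia. The exposed and control lungs overlapped in both sexes. The fitted log2 change of Cd3e with hyperoxia was 0.22 (SE 0.16, adjusted p = 0.519, edgeR) in females and −0.09 (SE 0.16, adjusted p = 1.00) in males. The female value ranged from 0.085 without room air lung 5 to 0.33 without room air lung 6, and it was 0.015 when the share of receptor reads was a covariate and 0.41 with the replicate block.

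Cd3g was at 10.1, 13.2 and 11.8 CPM in female room air and 13.99, 12.5 and 13.8 CPM in female hyperoxia. In males Cd3g was at 10.5, 12.96 and 13.2 CPM in room air and 10.2, 17.3 and 13.9 CPM in hyperoxia. Its lowest and its highest value in males both came from exposed lungs. Cd3d ran from 6.36 to 8.26 CPM in female room air, 6.27 to 9.01 in female hyperoxia, 6.09 to 10.4 in male room air and 7.61 to 7.97 in male hyperoxia. Cd247, whose chain carries the largest signalling tail of the receptor, ran from 9.95 to 12.2, 11.9 to 12.8, 9.83 to 12.5 and 9.82 to 13.9 CPM in the same order of groups. For these 3 genes the ranges overlapped between exposures, and the log2 changes were 0.14 to 0.20 in females and 0.02 to 0.16 in males.

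**Figure D2:**
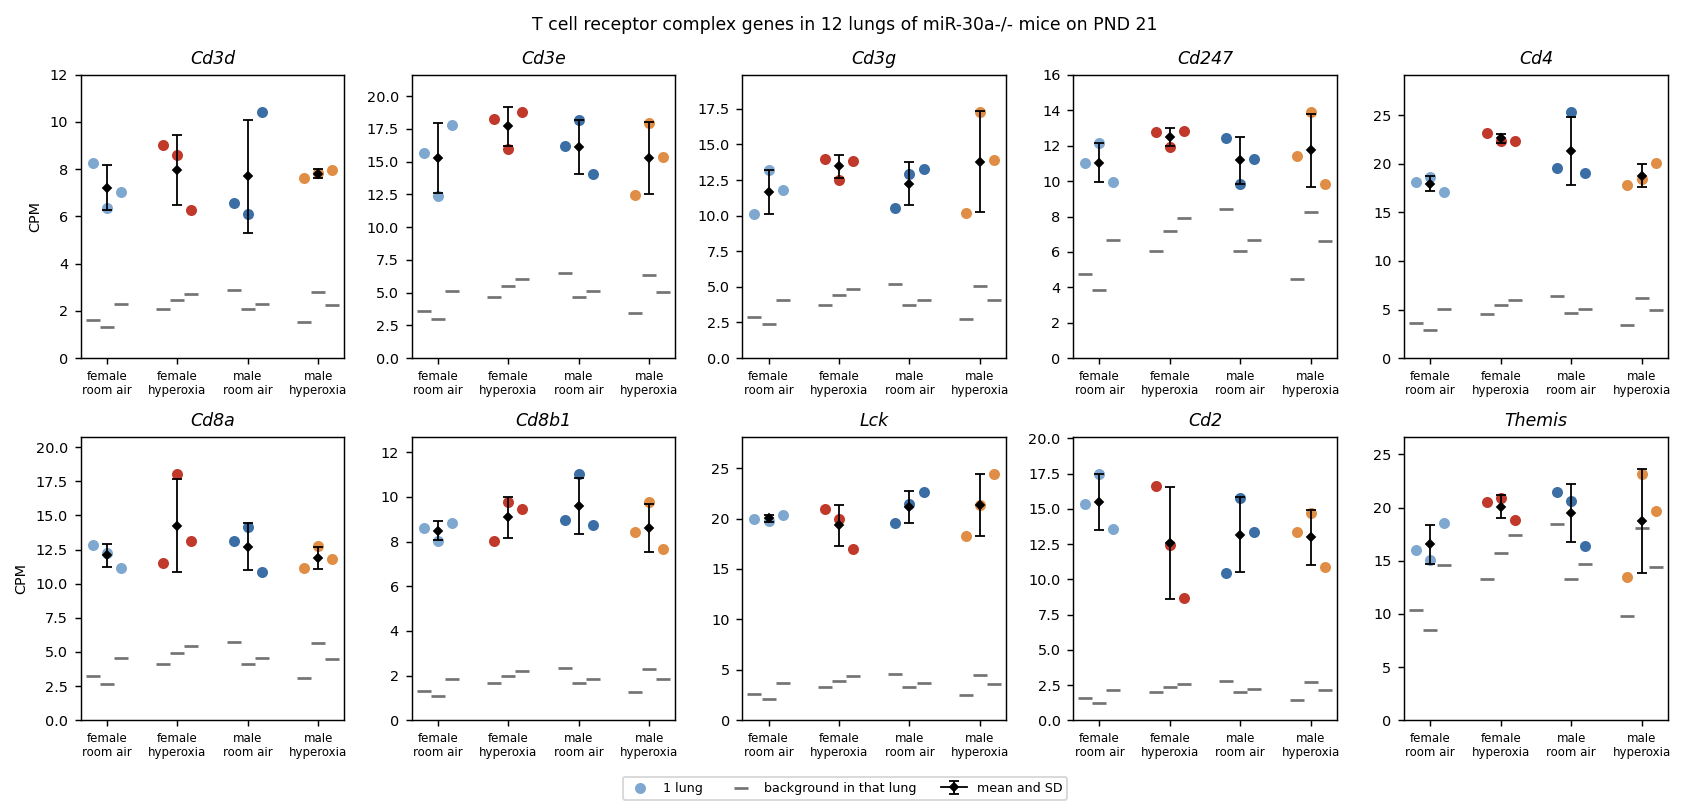
Level of each member in CPM (vertical axis from 0) in every lung by group; circles are lungs, diamonds with bars are the mean and SD of 3 lungs, and grey dashes give the background of that gene in the same lung. Cd4 and Themis of exposed females (red) lie above those of room air females, no member separates the male groups, and the dashes come closest to the circles for Themis.

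Cd4 marks helper and regulatory T cells and is also carried by some dendritic cells and macrophages. Its level was 18.1, 18.6 and 17.1 CPM in female room air and 23.2, 22.4 and 22.3 CPM in female hyperoxia. The exposed female lungs were all above the controls. In males Cd4 was at 19.6, 25.4 and 19.03 CPM in room air and at 17.8, 18.4 and 20.1 CPM in hyperoxia, where the groups overlapped. The log2 change in females was 0.33 (SE 0.14, 95% interval 0.04 to 0.62), with an unadjusted p of 0.026 and an adjusted p of 0.368 over all genes (edgeR). In males it was −0.18 (SE 0.14), from −0.26 without room air lung 5 to −0.031 without room air lung 4, and the difference of the changes, female minus male, was 0.52 (SE 0.20, unadjusted p = 0.016, adjusted p = 0.578). Neither passed the test. With background subtracted before the fit, the change in females was 0.54 (unadjusted p = 0.0026, adjusted p = 0.623, edgeR). It was 0.40 with at least 10 counts in every library (unadjusted p = 0.0053, edgeR). With the receptor share as a covariate it was 0.41 (unadjusted p = 0.0030) and with RUVr 0.33 (unadjusted p = 0.0031, both edgeR). With DESeq2 it was 0.23 with an unadjusted p of 0.186. The unadjusted p was also above 0.05 with TMM (0.076), without a filter (0.072), with the replicate block (0.113) and without female room air lung 2 or 6 or female hyperoxia lung 2 or 4 (0.050 to 0.074). The female minus male difference was 0.79 with background subtracted and 0.61 with the covariate (unadjusted p = 0.0020 and 0.0013, edgeR). With DESeq2 that difference was 0.40 with an unadjusted p of 0.106. Without male room air lung 4, which held the highest Cd4 level, that difference was 0.36 with an unadjusted p of 0.093 (edgeR). Background took 21.6% of Cd4 counts in female room air and 23.6% in female hyperoxia.

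CD8 is a dimer of the chains encoded by Cd8a and Cd8b1, whose genes lie on chromosome 6 (71373427 to 71379173 and 71322788 to 71337494). The alpha-beta form marks cytotoxic T cells. Cd8a stood at 12.8, 12.3 and 11.1 CPM in female room air and at 11.5, 18.05 and 13.1 CPM in female hyperoxia. The highest of all 12 lungs was female hyperoxia lung 4, and the groups overlapped. In males Cd8a ran from 10.8 to 14.2 CPM in room air and from 11.2 to 12.7 CPM in hyperoxia. Cd8b1 varied little, with 8.02 to 8.85, 8.05 to 9.76, 8.75 to 11.04 and 7.68 to 9.80 CPM in female room air, female hyperoxia, male room air and male hyperoxia. Within groups its counts varied about as much as counting alone allows (dispersion 1.19, where 1 is Poisson), whereas those of Cd2 varied most (6.92).

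The ratio of Cd4 to Cd8a, both above background and per kilobase, was 1.5004 ± 0.14 (SD, n = 3) in female room air, 1.78 ± 0.56 in female hyperoxia, 1.83 ± 0.20 in male room air and 1.67 ± 0.17 in male hyperoxia. The exposed female lungs spanned 1.16 to 2.26 and so covered the whole range of the 12 lungs. The ratio of Cd8b1 to Cd8a on that scale ran from 1.45 to 2.70 over all lungs. It averaged 2.08, 1.95, 2.40 and 2.24 in the same order of groups, with SDs of 0.26 to 0.46. Values of all 4 groups overlapped, and these ratios were not tested.

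Lck had the highest mean CPM of the members. It stood at 19.98, 19.7 and 20.4 CPM in female room air, 21.0, 19.9 and 17.01 in female hyperoxia, 19.5, 21.4 and 22.6 in male room air and 18.3, 21.3 and 24.4 in male hyperoxia. Its log2 changes were close to 0, with −0.05 (SE 0.14) in females and 0.01 (SE 0.14) in males. Cd2, whose protein binds CD48 in mice, was at 15.4, 17.5 and 13.6 CPM in female room air and at 16.6, 12.4 and 8.68 CPM in female hyperoxia. The exposed female lungs reached from near the highest to the lowest Cd2 level of all 12 lungs. Their log2 change was −0.30 (SE 0.19, adjusted p = 0.464, edgeR), and leaving out 1 lung moved it from −0.57, without female hyperoxia lung 2, to −0.089, without female hyperoxia lung 5. In males Cd2 ran from 10.5 to 15.7 CPM in room air and from 10.9 to 14.7 CPM in hyperoxia.

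Themis was at 15.98, 15.1 and 18.6 CPM in female room air and at 20.6, 20.9 and 18.8 CPM in female hyperoxia, which did not overlap. Its log2 change in females was 0.28 (SE 0.17, adjusted p = 0.440, edgeR). Background was higher too, and made up 66.7% of Themis counts in female room air and 77.4% in female hyperoxia. Above background, Themis was at 5.37 ± 1.35 CPM (SD, n = 3) in female room air and 4.63 ± 2.95 CPM in female hyperoxia. With background subtracted before the fit, the log2 change was 0.01. In males Themis ran from 16.4 to 21.5 CPM in room air and from 13.5 to 23.2 CPM in hyperoxia.

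**Figure D3:**
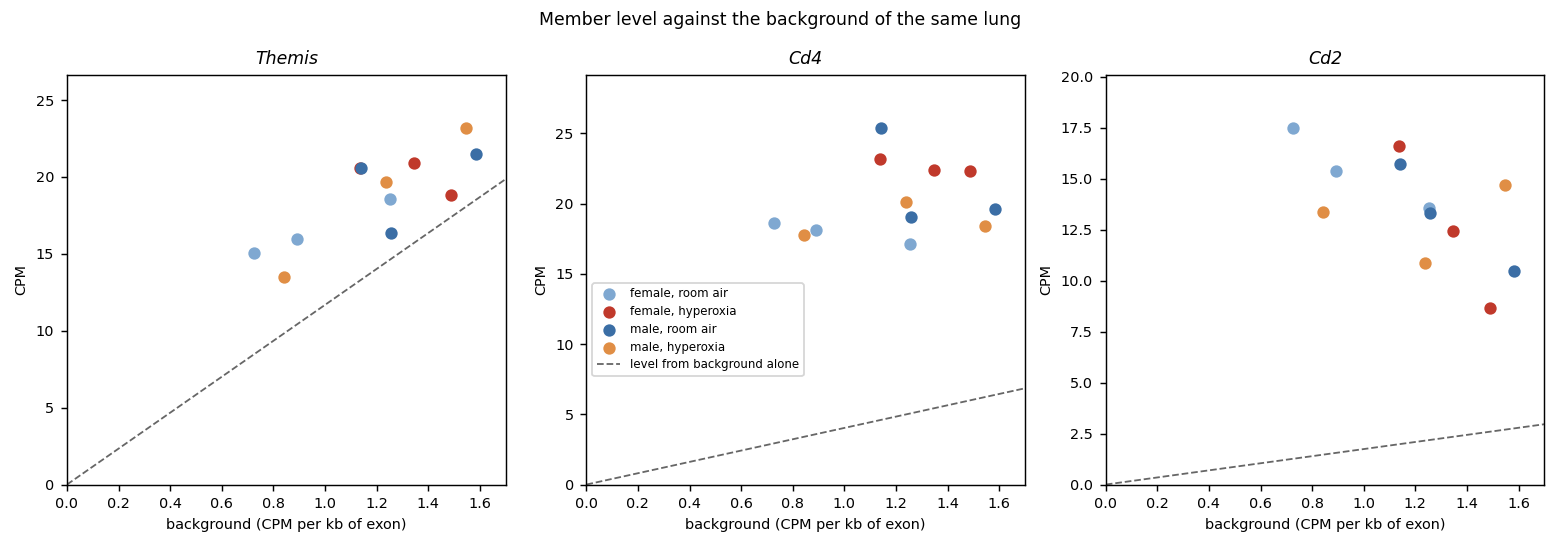
CPM of Themis, Cd4 and Cd2 (vertical axes from 0) against the background of the same lung in CPM per kb of exon (horizontal axis); points are the 12 lungs, coloured by group, and the dashed line gives the level that background alone would produce. Themis lies near the line and is higher where background is higher, Cd4 of exposed females lies above room air females at all backgrounds seen, and Cd2 is lower where background is higher.

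Over the 12 lungs the correlation of a member's log2 CPM with log2 background was highest for Themis (Pearson r = 0.81, Spearman rho = 0.74) and Cd3e (r = 0.69, rho = 0.48) and lowest for Cd2 (r = −0.62, rho = −0.68). Without the 2 lungs farthest from the median background, r was 0.63 for Themis, 0.21 for Cd3e and −0.60 for Cd2. These values describe lungs of 4 groups that share 1 normalization, and no p-value was computed.

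None of the 10 members passed the test in females (adjusted p under 0.05 and fold change over 1.5, edgeR), against 0.00218% of the 45828 genes tested. Of the 10, 1 (Cd4) had an unadjusted p under 0.05, against 7.32% of all genes higher and 5.28% lower, and DESeq2 called 0. The fitted change was above 0 for 8 members, against 60.8% of all genes, and the median over members was 0.19 against 0.11 over all genes. That order turned with the replicate block in females (0.11 for members against 0.17) and without female room air lung 6 (0.15 against 0.19). Groups did not overlap for 2 members, Cd4 and Themis, both higher, against 10.8% of all genes higher and 6.43% lower. The 95% intervals of the fold changes reached from 0.616 for Cd2 to 1.54 for Cd4 and Themis. They passed 1.5-fold in 1 direction for 3 genes, Cd4, Themis and Cd2, and for others, such as Cd8a, ended just short of it.

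In males 0 members passed, against 0.0% of all genes, 0 had an unadjusted p under 0.05, against 0.899% higher and 1.8% lower, and DESeq2 called 0. Changes ran from −0.18 for Cd4 to 0.16 for Cd3g, 4 of 10 were above 0 against 48.0% of all genes, and the median was −0.05 against −0.01 over all genes. The members' median was 0.043 without male hyperoxia lung 1 and −0.12 without male hyperoxia lung 2. No member's groups were apart in either direction, against 2.73% of all genes higher and 3.89% lower. All 10 intervals lay between folds of 0.697 and 1.43.

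With the sexes pooled, 0 members passed, against 0.0415% of all genes, and 0 had an unadjusted p under 0.05, against 2.67% higher and 2.52% lower. DESeq2 called 0. Changes ran from −0.17 (SE 0.14) for Cd2 to 0.18 (SE 0.12) for Cd3g, and all intervals lay between folds of 0.734 and 1.35. Leaving out 1 lung moved Cd2 from −0.30, without female hyperoxia lung 2, to −0.059, without female hyperoxia lung 5. It moved Cd3g from 0.093, without male hyperoxia lung 2, to 0.27, without male hyperoxia lung 1. For the difference between the sexes in their response, 0 members passed, against 0.0% of all genes, and 1 (Cd4) had an unadjusted p under 0.05, against 6.06% of all genes higher and 2.4% lower. DESeq2 called 0.

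**Figure D4:**
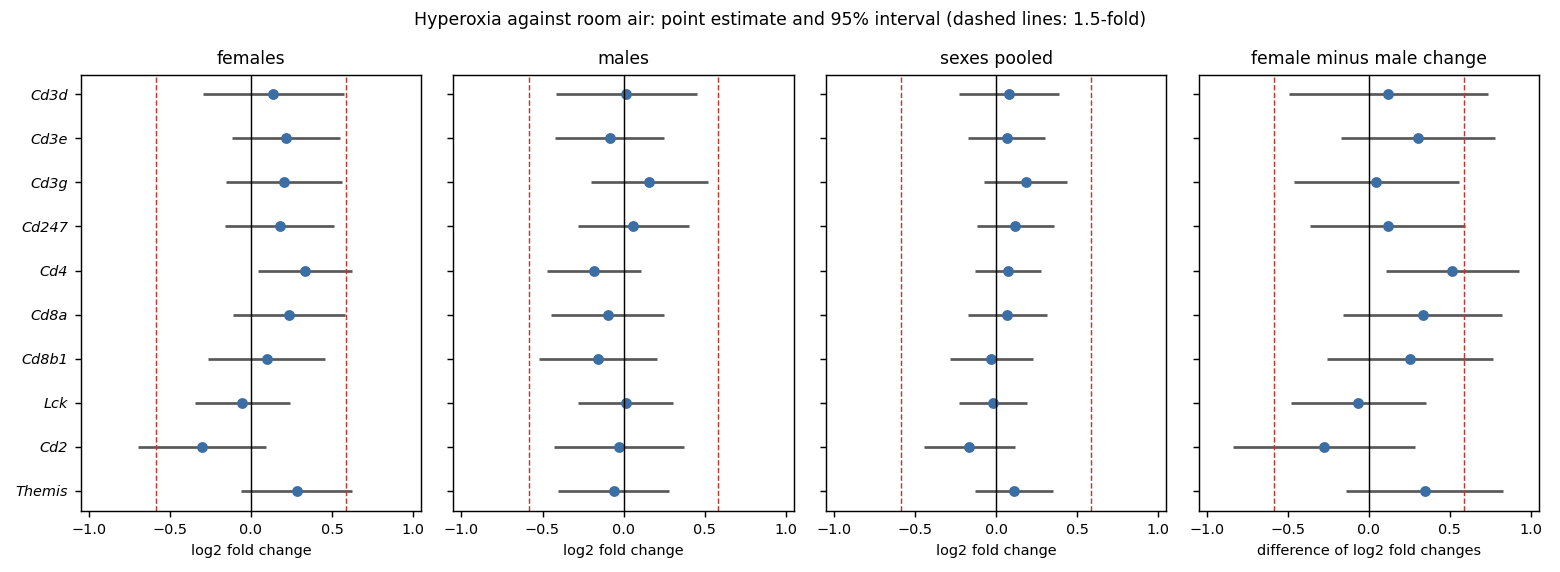
Fitted log2 fold change of each member with its 95% interval for hyperoxia against room air in females, in males and with the sexes pooled, and the female minus male difference of these changes; the solid line is 0 and the dashed lines are 1.5-fold. All male and pooled intervals cross 0 and lie inside the dashed lines, and of the female intervals that of Cd4 (0.04 to 0.62) does not cross 0.

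The receptor's own chains were read through the TCR loci. The constant gene of the alpha chain, Trac, was at 8.22, 8.19, 8.80 and 8.39 CPM on average in female room air, female hyperoxia, male room air and male hyperoxia. Its log2 change was −0.0032 in females (SE 0.19) and −0.06 in males (SE 0.19). Trdc, the delta chain constant gene, lay 1.48 times above background, within the range of the receptor genes. In all, 4 of 7 constant genes of the list were matched by symbol and 0 passed in any comparison. The unmatched ones were all gamma chain genes, listed under symbols that the counts do not use, so their levels were not read. Over the 70 annotated joining segments the summed level was 35.3 ± 6.94 CPM (SD, n = 3) in female room air, 40.7 ± 2.52 in female hyperoxia, 43.1 ± 2.38 in male room air and 38.9 ± 5.92 in male hyperoxia. Per kilobase, the joining segments lay 8.05 times above background and the 144 variable segments 1.75 times. Joining segments are very short, and a read that overlaps one adds a whole count. Their ratio is therefore not comparable with that of the variable segments or the members.

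Of 29 genes of the TCR signalling pathway, 0 passed with hyperoxia in either sex, with 4 at an unadjusted p under 0.05 in females and 1 in males (edgeR). Over all genes in females, 7.32% were higher and 5.28% lower at that p and 60.8% had changes above 0. In males 0.899% were higher, 1.8% lower and 48.0% above 0. Ptprc (CD45), the phosphatase that primes LCK and is carried by all white blood cells, had a log2 change of −0.60 (SE 0.24, adjusted p = 0.357) in females and −0.17 (SE 0.24) in males. Plcg1, the phospholipase downstream of the receptor and of growth factor receptors, had −0.31 (SE 0.24) and 0.08 (SE 0.24). In the pathway 10 of 29 genes had a change above 0 in females, with a median of −0.12, and 13 of 29 in males.

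Costimulatory and checkpoint receptors gave 0 of 15 called in both sexes, with changes above 0 for 9 of 15 in females and 6 of 15 in males. Btla, an inhibitory receptor of T and B cells, had −0.36 (SE 0.17) in females and 0.04 (SE 0.17) in males, and Slamf1 had 0.23 (SE 0.17) and −0.02 (SE 0.17). Of 5 naive T cell homing genes, 0 passed, while in females 4 of 5 had changes below 0 and 3 an unadjusted p under 0.05, against 7.32% of all genes higher and 5.28% lower at that p. Klf2, which keeps T cells in circulation and is abundant in endothelium, did not pass, with −0.96 (SE 0.27, adjusted p = 0.292, edgeR) in females and −0.23 (SE 0.27) in males. S1pr1, the receptor for exit from lymphoid tissue, also expressed by endothelium, had −0.74 (SE 0.26) and 0.10 (SE 0.26). Of 11 cytotoxic and NK cell genes 0 passed. In females 10 of 11 had changes above 0, against 60.8% of all genes, with a median of 0.23 against 0.11. At an unadjusted p under 0.05 (edgeR) there was 1, Eomes, against 7.32% of all genes higher and 5.28% lower. In males 5 of 11 were above 0, against 48.0% of all genes, with a median of −0.008 against −0.01. At that p there was 1 in males, against 0.899% of all genes higher and 1.8% lower. Eomes, at 0.48 (SE 0.17, adjusted p = 0.352) in females, and Klrk1, at 0.24 (SE 0.19), had the highest CPM of that list. In males the mean CPM of Eomes was 11.3 in room air and 9.94 in hyperoxia, and that of Klrk1 10.7 and 7.87.

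Markers of other cells that a lung sample can hold were read beside the members. B cell genes had 0 of 10 called, with changes below 0 for 9 of 10 in females, and 5 of 10 had an unadjusted p under 0.05, all lower, against 5.28% of all genes. Ms4a1 (CD20) had −0.56 (SE 0.18, adjusted p = 0.339) and Pax5 −0.33 (SE 0.17) in females. The summed B cell level was 277 to 374 CPM in female room air, 241 to 290 in female hyperoxia, 252 to 306 in male room air and 268 to 291 in male hyperoxia, with no B cell marker at 0. Dendritic cell genes had 0 of 8 called, with changes above 0 for 4 of 8 in females. Clec9a had 0.0028 (SE 0.23) and Zbtb46 −0.29 (SE 0.18) in females. The part of these cells in the members' levels was not tested.

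The thymus, where T cells mature, lies beside the heart and lungs. The 11 thymocyte and thymic epithelial genes lay 1.32 to 4.45 times above background, a range that overlaps that of the members, and 9 lay above the 95th percentile of the receptor genes. Their summed level was 163 to 172 CPM in female room air, 183 to 202 in female hyperoxia, 177 to 199 in male room air and 171 to 211 in male hyperoxia. Of the 11, 0 were called and 4 had an unadjusted p under 0.05 in females, against 7.32% of all genes higher and 5.28% lower at that p. In females 9 of 11 had changes above 0, against 60.8% of all genes, with a median of 0.30 against 0.11, and 3 of the 4 were higher. In males 4 of 11 had changes above 0, against 48.0% of all genes, with a median of −0.04 against −0.01. Arpp21 had a log2 change of 0.44 (SE 0.19) and Ccl25 −0.16 (SE 0.14) in females. Among genes chosen after their values were seen, Rag1 and Rag2, which cut the receptor genes in developing lymphocytes, lay 1.41 and 1.32 times above background, within the range of the receptor genes. Of the lymph node stroma genes, Ccl21a and Ccl19, named after their values were seen, are listed at 0 counts in all lungs. Each is annotated on chromosome 4 and again on an unplaced scaffold, with both copies at 0. How reads that match more than 1 copy were counted is not stated, so these values do not show that the genes were silent. Chst4 and Madcam1 had changes of −0.03 (SE 0.21) and 0.43 (SE 0.20) in females, and none of the 4 tested genes passed. Of these 4, 3 had changes above 0 in females, against 60.8% of all genes, with a median of 0.46 against 0.11. At an unadjusted p under 0.05 (edgeR) there were 2, both higher, against 7.32% of all genes higher. In males 1 of the 4 was above 0, against 48.0% of all genes, with a median of −0.19 and 0 at that p. Over all genes in males, 0.899% were higher and 1.8% lower at that p. The part of thymus or lymph node in the members' levels was not tested. The 6 alveolar epithelial genes had changes below 0 in females, where 60.8% of all genes were above 0. They summed to 5195 to 9998 CPM in female room air and 4873 to 6144 CPM in female hyperoxia, with 0 called. Sftpc had −0.57 (SE 0.41) and Sftpb −0.59 (SE 0.37) in females. In males 5 of the 6 had changes above 0 (median 0.13), against 48.0% of all genes, with 0 called. Their sums were 4225 to 6724 CPM in male room air and 3849 to 8118 CPM in male hyperoxia.

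Females and males were also compared within each exposure. In room air 0 members passed, against 0.386% of all genes, with 0 at an unadjusted p under 0.05, against 4.94% higher and 7.75% lower, and 0 called by DESeq2. Changes ran from −0.25 for Cd4 to 0.24 for Cd2. In hyperoxia 0 passed, against 0.696% of all genes, again with 0 at an unadjusted p under 0.05, against 3.59% higher and 1.1% lower, and 0 by DESeq2. Changes ran from −0.15 for Lck to 0.27 for Cd4. Over all the lists, 1 gene passed in any comparison: Foxp3, the regulatory T cell factor, on the X chromosome. Foxp3 was at 16.997, 15.5 and 21.3 CPM in female room air and at 9.13, 8.78 and 10.6 CPM in male room air. In hyperoxia it was at 18.3, 16.96 and 18.3 CPM in females and 10.3, 14.2 and 10.1 CPM in males. The female lungs were above the male lungs in both exposures. The log2 difference, female minus male, was 0.91 (SE 0.16, adjusted p = 0.00382, edgeR) in room air, which passed. In hyperoxia it was 0.65 (SE 0.16, adjusted p = 0.0653) and did not pass. With at least 10 counts in every library the room air difference did not pass either (adjusted p = 0.0821, edgeR).

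Background moved with sex on the X chromosome. On 9 X-linked olfactory and vomeronasal receptor genes the read density, relative to autosomal ones, was 1.09 to 1.22 in females and 0.546 to 0.682 in males. Foxp3 lay 2.64 times above background and shares 2082 of its 4577 exon bases with other genes. Sh2d1a and Cd40lg, also X-linked, were named after their values were seen. Their female minus male differences in hyperoxia were 0.94 (adjusted p = 0.137, edgeR) and 1.30 (adjusted p = 0.169). In room air Sh2d1a averaged 4.93 CPM in females and 3.08 in males, and Cd40lg 2.63 and 1.53. Their counts were 0.654 and 1.42 times the background, the first below it. With the autosomal background subtracted before the fit, the Foxp3 difference in room air was 1.79. The part of X-linked background in the Foxp3 difference was not tested.

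Members varied together only loosely from lung to lung. Over the 45 pairs of members the median Pearson r of log2 CPM across 12 lungs was 0.11, from −0.42 for Lck and Cd247 to 0.80 for Themis and Cd3e. The chains of CD8, Cd8a and Cd8b1, had r = 0.60. Cd3e had r = 0.40 with its partner Cd3g and −0.15 with its partner Cd3d, and the neighbouring genes Cd3g and Cd3d had 0.11. The 12 lungs share 1 normalization, and these values are descriptions.

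Among 32651 genes with a mean of at least 2 CPM, the pattern most like the members' mean z-score over 12 lungs was that of Gm36199 (r = 0.92), followed by 9530052E02Rik (0.92), Gm48006 (0.91), C230014O12Rik (0.91), 4833428L15Rik (0.90), Gm28187 (0.90), Gm11197 (0.90), Gm12451 (0.89), Gm43190 (0.89) and Pum3 (0.89). None of these was in a T cell list. With 2 lungs left out these values ran from 0.79 to 0.94. The nearest gene to Themis was the olfactory receptor gene Olfr654 (r = 0.96, rho = 0.96). The nearest to Cd3e was Gm50246 (0.95), to Cd3g Spatc1l (0.95), to Cd8b1 Gm43134 (0.91), to Cd3d Gm21358 (0.91) and to Cd247 Wnt11 (0.90). For Cd8a, Cd2, Cd4 and Lck the nearest were A930007A09Rik (0.89), Gm48662 (0.89), Gm28100 (0.86) and Gm13240 (0.85).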

How the data were processed

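Per the labels and the paper's methods, the authors used Trim Galore for trimming, STAR for alignment to mm10 (GRCm38) and featureCounts for counting, and deposited raw counts of reads per gene that are not normalized. Versions are not given in the sources used here. The labels name a NEBNext Ultra II Directional kit and the methods a QIAseq Stranded kit. No molecular identifiers are described, so the floor of 3 counts covers counting error only.

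Counts were fitted in R 4.3.3 with edgeR 4.0.16 (robust quasi-likelihood, upper-quartile normalization, filterByExpr, 4 groups, 45828 genes, biological coefficient of variation 0.177). A call needed an adjusted p (Benjamini-Hochberg over all genes) under 0.05 and a fold change over 1.5. CPM used the normalized library sizes. Likeness used log2 CPM with a prior count of 2. Exon lengths came from GENCODE release M21, which matched 55227 genes. Tables and figures used Python 3.11.15, pandas 2.3.3 and numpy 2.4.6. The fit was tested on simulated data.

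Alternatives were TMM, the DESeq2 1.42.0 Wald test, no filter, 10 counts in every library, RUVr with 1 factor, background subtracted, receptor share as a covariate, each lung left out, and, in females, a block for the animal number. The study's batch step was not repeated. The study also normalized with RUVr, but its number of factors is not given. RUVr was therefore an alternative here and not part of the main fit.

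The members and lists were chosen with earlier results of these data known. Named genes are all members, listed genes that passed in any comparison or otherwise the 2 with the highest mean CPM of a list, and the genes most like the members. Labels number the animals, but p-values measure only the spread between these 12 lungs.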

Additional observations from a re-analysis of the deposited data

How the results depend on the processing

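Under the 20 alternatives 0 members were called in any comparison. Of the values for these 6 counts of calls, the 31 fold changes of members and the 2 of Foxp3, 726 kept their direction and their side of the threshold, and 32 changed direction, of which 11 came from settings other than leaving out a lung. With at least 10 counts in every library, Lck had 0.013 in females and 0.011 pooled and Cd8b1 had 0.0025 pooled. With background subtracted, Lck had 0.071 in females, −0.0043 in males and 0.033 pooled, Cd8b1 had 0.023 pooled and Themis 0.21 in males. With the receptor share as a covariate, Cd3e had −0.017 pooled, and with the replicate block in females, Cd8a had −0.024 in females and −0.060 pooled. The cause was not tested. Leaving out each lung in turn, values that changed direction ranged in males from −0.12 to 0.31 for Cd3d, −0.20 to 0.046 for Cd3e, −0.016 to 0.34 for Cd3g, −0.062 to 0.18 for Cd247, −0.097 to 0.12 for Lck, −0.17 to 0.13 for Cd2 and −0.22 to 0.14 for Themis. In females Lck ranged from −0.12 to 0.034, and without a change of direction Cd3d ranged from 0.031 to 0.29, Cd3g from 0.11 to 0.30, Cd247 from 0.10 to 0.25, Cd8a from 0.028 to 0.36, Cd8b1 from 0.042 to 0.17 and Themis from 0.22 to 0.36. Likewise Cd8a in males ranged from −0.20 to −0.0029 and Cd8b1 from −0.24 to −0.036, and pooled values from 0.011 to 0.22 for Cd3d, 0.056 to 0.18 for Cd247, 0.037 to 0.15 for Cd4 and 0.028 to 0.21 for Themis. Pooled, Cd8a ranged from −0.033 to 0.13, Cd8b1 from −0.073 to 0.031 and Lck from −0.075 to 0.033. With RUVr, Cd4 had an adjusted p of 0.0240 (edgeR) and a fold of 1.26 in females and an adjusted p of 0.0186 for the difference between the sexes, with the fold change below 1.5 in both. The adjusted p of Cd4 in females ranged over the alternatives from 0.0240 to 0.914. Animals with the same number did not deviate together (r = 0.06 and −0.17 in females, −0.30 in males), and the fit with the replicate block called 0 members and 1 of all genes in females.

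Foxp3 in room air was not called with at least 10 counts in every library (0.86, adjusted p = 0.0821, over 3.1e-07 to 0.0821 in all alternatives). In hyperoxia it was called with TMM, RUVr and the covariate (0.65, 0.65 and 0.60) and without female room air lung 5 or 6 or male hyperoxia lung 2. In females 1 gene was called in the main model, 44 with DESeq2, 22 with the covariate, 8 without a filter, 0 with TMM or background subtracted, 1898 with RUVr and 206 without female room air lung 6. Pooled, the 19 calls became 40 with DESeq2, 92 with RUVr and 10 with background subtracted, and 3 to 37 with 1 lung left out. In males there were 16 with RUVr and 6 with the covariate, and the difference between the sexes had 2102 with RUVr. Between females and males, the 177 calls in room air became 3 with at least 10 counts in every library, 2274 with RUVr and 107 to 616 with 1 lung left out (616 without female room air lung 6), and the 319 in hyperoxia became 148, 677 and 139 to 422. The covariate moved the median of all genes in females from 0.11 to 0.0024 and that of the members from 0.19 to 0.07. A member had 70 to 331 counts per lung, and there were 3 lungs per group. The standard errors of the members' log2 changes within a sex were 0.14 to 0.21. Smaller changes could not be resolved, and neither could some larger ones. In females Cd2 at −0.30 (SE 0.19) and Themis at 0.28 (SE 0.17) did not pass.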
